A study of Mus musculus with 12 samples.

Results

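Dextran sulfate sodium (DSS) is a sulfated polysaccharide that damages the colonic epithelium and serves as a standard way to make colitis in mice. Its effect on the liver under a high-fat diet (HFD) was measured by setting the 3 libraries of HFD_DSS, mice on the HFD with 2% DSS, against the 3 libraries of HFD, mice on the same diet without DSS. These 6 of the 12 libraries of the series were chosen by their labels. The mice were of the inbred strain C57BL/6J and wild-type, and whole liver was sequenced as total RNA extracted with an RNeasy kit and made into libraries with a SMARTer mRNA kit. The other 6 libraries, 3 of CD_DSS (2% DSS on a diet that the labels call only CD) and 3 of CD, serve here only to test whether an effect differed between diets. The sources used here do not give the route and duration of DSS, the duration of the diets, or the sex and age of the mice. No label ties each library to an animal of its own, so p-values here measure sample-to-sample spread, which may be technical.

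The liver receives the blood that drains the gut, and bacterial products and cytokines that reach it during intestinal inflammation act on hepatocytes and on Kupffer cells, the resident macrophages. Interleukin 6 acts through its receptor and the transcription factor STAT3 on the genes of acute phase proteins, which hepatocytes secrete in bulk. Secreted proteins are translocated into the endoplasmic reticulum (ER), folded there by chaperones and carried to the Golgi in coated vesicles, while detoxifying cytochromes P450 and many enzymes of amino acid and lipid metabolism are known to fall in inflamed liver.

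Expression was given as FPKM, a fragment count scaled to exon length and library size, and fold changes are differences of mean log2(FPKM + 1), which understate the change of genes near or under 1 FPKM. The 6 libraries held 23.4 to 26.5 M (mega) fragments. All 14 hepatocyte markers had at least 1 FPKM in 3 of the 6 libraries. Of the markers of pancreas, gut and fat, 7 of 17 were at 0 in all 6 libraries, among them Prss1, Ins2 and Lep, and 12 stayed below 1 FPKM. Their summed level was nevertheless 33.6, 78.5 and 46.5 FPKM in HFD_DSS and 100, 97.7 and 97.6 FPKM in HFD, and of the 4 tested, Cela1, an elastase gene, was called lower (log2 fold change -1.20). Red blood cell markers summed to 272, 173 and 239 FPKM in HFD_DSS and 702, 334 and 263 FPKM in HFD, and 1 of 5, Alas2, was called lower (-0.72). The part of these markers in the results was not tested. On the first principal component of the 6 libraries, which held 59.7% of their variance, HFD_DSS 1, 2 and 3 lay at -28.6, -4.39 and -23.1 and HFD 1, 2 and 3 at 6.01, 26.6 and 23.4. On this component HFD_DSS 2 and HFD 1 lay between the other 4 libraries, with the groups still apart. On the second component (15.6%) they lay far from each other, at 10.8 and -22.7. Across genes, which are not independent replicates, HFD_DSS 2 correlated with HFD_DSS 3 at r = 0.982 and with HFD 1 at 0.979. No measure in the files tells DSS exposure apart from the response to it, so the labels of these libraries could not be checked. Several list counts are also given without HFD_DSS 2 and HFD 1. As these libraries were picked for lying between the groups in the same values, more calls and larger medians without them follow from the choice and support nothing.

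With DSS on the high-fat diet, 555 of 10316 genes were called (limma, Benjamini-Hochberg adjusted p under 0.05), which is 5.38% of the genes tested. Of these, 198 were higher in HFD_DSS (1.92%) and 357 lower (3.46%). The median log2 fold change over all tested genes was -0.01. The groups did not overlap in 554 of the 555, beside 27.4% of all tested genes. The split moved with the scaling of the libraries: after rescaling to TPM, 382 genes were called, of which 256 were higher and 126 lower. Without HFD 1 and HFD_DSS 2 the calls numbered 1315, with 554 higher and 761 lower, and 473 of the 555 were among them. Of the genes tested, 56 passed the filter on low values only through HFD_DSS and 46 only through HFD, and 36 of these were called, so for these genes the filter itself asked for a difference.

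A group of 16 genes kept the call whichever 1 of the 6 libraries was left out. The highest of them in fold was Socs3, a feedback inhibitor of STAT3 signalling, and the lowest Cyp2a5, a cytochrome P450 of the pericentral liver that oxidises coumarin and nicotine. Zbtb16, a zinc finger transcription factor induced by glucocorticoids, had 11.7, 9.16 and 11.8 FPKM in HFD_DSS 1, 2 and 3, against 1.32, 1.60 and 1.91 FPKM in HFD 1, 2 and 3. Every HFD_DSS library was above every HFD library (log2 fold change 2.18, SE 0.16, limma adjusted p = 0.00022). Fkbp5, a co-chaperone of the glucocorticoid receptor and also one of its known targets, had 12.4, 7.70 and 8.36 FPKM in HFD_DSS and 2.26, 1.59 and 1.63 FPKM in HFD (log2 fold change 1.87, SE 0.25, limma adjusted p = 0.00828). These genes did not stand for the whole list of glucocorticoid receptor targets, whose median was -0.11. Of its 21 members 4 were called higher, beside 1.92% of all genes, and none lower. Tsc22d3, which encodes the glucocorticoid-induced leucine zipper, was not called (log2 fold change -0.76).

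Socs3 had 14.7, 10.7 and 26.7 FPKM in HFD_DSS and 4.02, 1.04 and 2.23 FPKM in HFD (log2 fold change 2.42, SE 0.33, limma adjusted p = 0.00962). Sox9, a transcription factor of bile duct cells and of hepatocytes near the portal tract, had 4.44, 3.62 and 4.14 FPKM in HFD_DSS and 1.39, 1.47 and 1.37 FPKM in HFD (log2 fold change 1.07, SE 0.10, limma adjusted p = 0.000772). Hes1, a Notch target that represses transcription, had 4.35, 6.43 and 4.66 FPKM in HFD_DSS and 1.13, 1.56 and 1.49 FPKM in HFD. Libraries of both groups were close to each other within the group for Sox9 and well apart between the groups. Sox9 was the 1 called member of the 3 cholangiocyte markers tested; Krt19 and Krt7, which define bile duct cells, stayed below 1 FPKM in all 6 libraries. In bulk tissue, fewer cells of a type and less RNA per cell cannot be told apart, and the same holds for more. Klf10, a zinc finger factor induced early by TGF-beta, had 4.62, 7.07 and 7.16 FPKM in HFD_DSS and 0.924, 1.65 and 0.836 FPKM in HFD. Arhgef26, a guanine nucleotide exchange factor for RhoG, also rose (log2 fold change 1.83), but it shares 21.6% of its exon bases with another annotated transcript, and the sources used here do not say how reads were counted.

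Among the genes that fell in each of these fits, Cyp2a5, which has a near-identical copy in Cyp2a4 so that its value is uncertain, had 1.25, 3.38 and 1.78 FPKM in HFD_DSS and 40.1, 53.0 and 38.2 FPKM in HFD. All 3 HFD_DSS libraries lay far below all 3 HFD libraries (log2 fold change -3.88, SE 0.43, limma adjusted p = 0.00236). Gls2, the liver glutaminase, had 42.3, 41.3 and 41.8 FPKM in HFD_DSS and 66.8, 115 and 88.7 FPKM in HFD (log2 fold change -1.06, SE 0.16, limma adjusted p = 0.00979). Its HFD_DSS libraries were nearly equal, and the HFD libraries spread widely above them. Tsc22d1, a TGF-beta-responsive leucine zipper gene, had 2.83, 3.40 and 3.95 FPKM in HFD_DSS and 14.5, 16.9 and 25.2 FPKM in HFD (log2 fold change -2.15, limma adjusted p = 0.000772). Kcnk5, a potassium channel, had 2.63, 3.35 and 4.34 FPKM in HFD_DSS and 15.2, 14.7 and 15.2 FPKM in HFD. Also among the 16 were Cyp2f2, a periportal P450 (log2 fold change -1.06), Car1, a carbonic anhydrase (-1.44), the long noncoding RNA Gm35696 (-1.76) and the processed pseudogene Gm45344 (0.93), which passed the filter on low values only through HFD_DSS.

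In mm10 coordinates, Zbtb16 (ENSMUSG00000066687) spans chr9:48654297-48836222, and both Socs3 (chr11:117966079-117970047) and Sox9 (chr11:112782224-112787760) are on chromosome 11. Cyp2a5 spans chr7:26835305-26843548 and Gls2 chr10:128194457-128210004. All are annotated as protein-coding genes, and their values refer to the summed exons.

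**Figure D1:**
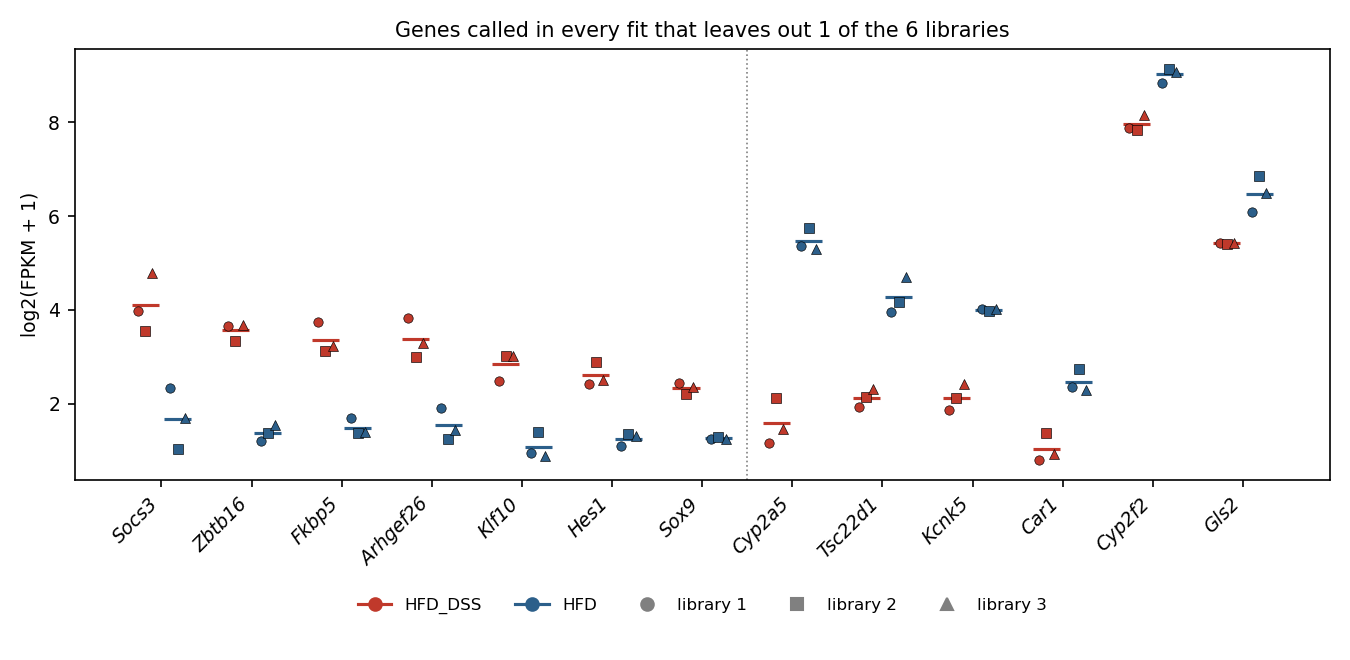
Expression as log2(FPKM + 1) of 13 of the 16 genes that were called in every fit leaving out 1 of the 6 libraries, HFD_DSS in red and left of HFD in blue; marker shapes stand for the library number and bars for the group mean. In each gene the 3 libraries of one group lie above the 3 of the other, for example 1.25 to 3.38 FPKM in HFD_DSS against 38.2 to 53.0 FPKM in HFD for Cyp2a5.

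Of 21 tested genes of interleukin 6 and STAT3 signalling, 5 were called higher and 1 lower, beside 1.92% and 3.46% of all genes. The median log2 fold change was 0.09, and 6 were called higher and 1 lower without HFD 1 and HFD_DSS 2. Il6ra, the receptor chain that binds interleukin 6, had 14.0, 11.9 and 12.4 FPKM in HFD_DSS and 6.19, 5.91 and 6.72 FPKM in HFD (log2 fold change 0.92, SE 0.15, limma adjusted p = 0.0112). Il6st, the shared signal-transducing chain gp130, had 32.2, 37.0 and 36.1 FPKM in HFD_DSS and 21.2, 25.6 and 24.4 FPKM in HFD (log2 fold change 0.55, limma adjusted p = 0.0346). The call of Il6st was lost without any 1 of the 6 libraries, and without HFD 1 and HFD_DSS 2 its limma adjusted p was 0.0939. Stat3 itself rose by 0.60 and its target kinase Pim1 by 1.04 on the log2 scale. Il11ra1, the receptor of the related cytokine interleukin 11, fell (log2 fold change -0.52). The kinases Jak1, Jak2 and Tyk2 had log2 fold changes of 0.24, -0.01 and 0.04 and were not called.

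The median log2 fold change of the 29 positive acute phase genes tested was 1.54. Of these, 7 were called higher, beside 1.92% of all genes, and none lower. The called members were Apcs (serum amyloid P), Fgl1, the interleukin 1 receptor Il1r1, Itih4, the fibrinogen chains Fga and Fgg, and Cp (ceruloplasmin). Fga had 5259, 3225 and 5382 FPKM in HFD_DSS and 2558, 1454 and 1698 FPKM in HFD (log2 fold change 1.28, SE 0.31, limma adjusted p = 0.0399). The HFD_DSS libraries all lay above the HFD libraries, with HFD_DSS 2 the lowest of the one group and HFD 1 the highest of the other. In Apcs the same libraries were lowest and highest, with 1231, 247 and 837 FPKM in HFD_DSS and 159, 43.5 and 45.8 FPKM in HFD (log2 fold change 3.19, limma adjusted p = 0.0425). The genes with the largest folds of the list were not called, and in them HFD 1 and HFD_DSS 2 approached each other or crossed. Saa1, serum amyloid A1, had 1104, 191 and 2670 FPKM in HFD_DSS and 579, 19.9 and 22.4 FPKM in HFD, so that HFD 1 was above HFD_DSS 2 (log2 fold change 3.65, SE 1.64, limma adjusted p = 0.203). Lcn2, the siderophore-binding lipocalin 2, had 366, 38.3 and 423 FPKM in HFD_DSS and 35.8, 1.18 and 0.746 FPKM in HFD (log2 fold change 5.14, SE 1.46, limma adjusted p = 0.0641). Without HFD 1 and HFD_DSS 2, 23 of the 29 genes were called higher and none lower, and the median was 2.19. This increase follows from the choice of the libraries left out and lends no support to the genes not called.

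The chemokine gene Cxcl1, a neutrophil attractant, was the called gene with the highest fold after metallothioneins and Mup8, with 53.4, 14.6 and 70.9 FPKM in HFD_DSS and 8.13, 0.572 and 0.999 FPKM in HFD (log2 fold change 3.68, SE 0.65, limma adjusted p = 0.0149). Of 15 chemokines and cytokines 2 were called higher, Cxcl1 and Cxcl14 (1.99), and 1 lower, Il18 (-0.36), and the list's median was -0.05. Beside this list and the following ones, 1.92% of all genes were called higher and 3.46% lower. Of 26 genes of NF-kB and toll-like receptor signalling 2 were called higher, the co-regulator Nfkbiz (1.87) and Il1r1, and none lower, with a median of 0.13. Of 25 immediate early genes 6 were called higher and none lower, with a median of 0.26: Klf10, Junb (1.64), Gadd45b (1.01), Fosl2 (0.76), Atf3 (0.74) and Klf6 (0.50). Atf3 and Gadd45b passed the filter on low values only through HFD_DSS. Mt1, a metallothionein that binds zinc, had 714, 138 and 520 FPKM in HFD_DSS and 68.3, 4.17 and 2.64 FPKM in HFD (log2 fold change 5.09, SE 1.31, limma adjusted p = 0.048). Mt2 shares 73.5% of its exon bases with a transcript on the opposite strand, so its value is uncertain. Hamp, the iron hormone hepcidin, which interleukin 6 is known to raise, had 67.5, 24.2 and 496 FPKM in HFD_DSS, all below the 687, 507 and 675 FPKM in HFD (log2 fold change -2.70, SE 1.08, limma adjusted p = 0.157). Hamp2, its paralog in mice, fell (log2 fold change -2.48, limma adjusted p = 0.0313).

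Complement genes had a median log2 fold change of 0.35, with 3 of 28 called higher (C3 and C4bp among them) and 1 lower. Without HFD 1 and HFD_DSS 2 the counts were 7 and 1. Beside this list and the coagulation genes, 1.92% of all genes were called higher and 3.46% lower. C3, the central component of the cascade, had 3587, 2223 and 3641 FPKM in HFD_DSS and 1385, 1242 and 1262 FPKM in HFD (log2 fold change 1.25, SE 0.29, limma adjusted p = 0.0363). C8g, the gamma chain of the membrane attack component C8, fell (log2 fold change -0.77, limma adjusted p = 0.00992), while its partners C8a and C8b had 0.50 and -0.10 and were not called. Of 24 coagulation genes, 3 were called higher and none lower (median 0.20): the anticoagulant protein S gene Pros1 (0.72), kininogen 2 (Kng2, 0.82) and thrombomodulin (Thbd, 0.85). None of 33 interferon-stimulated genes was called by limma (median 0.15), and without HFD 1 and HFD_DSS 2, 4 were called higher. An unadjusted limma p under 0.05 was found in 9 of the 33, near the share over all genes, 2468 of 10316.

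Summed levels of immune cell markers overlapped between the groups. The summed level of 22 macrophage and Kupffer cell markers was 461 to 655 FPKM in HFD_DSS and 342 to 531 FPKM in HFD. Of the 16 that were tested, 2 were called higher, beside 1.92% of all genes, with a median of 0.48: Marco, a scavenger receptor (1.90), and the tetraspanin Cd9 (0.49). All 16 had a positive log2 fold change, beside 4895 of all 10316 genes. Without HFD 1 and HFD_DSS 2, 7 were called higher, which follows from the choice of libraries. The Kupffer cell markers Clec4f and Adgre1 had 0.30 and 0.58 and were not called. Markers of recruited monocytes, Ly6c2 and Ccr2, stayed below 1 FPKM in all 6 libraries. Neutrophil markers other than Lcn2, which hepatocytes also make, summed to 60.8, 5.93 and 52.0 FPKM in HFD_DSS and 25.7, 2.08 and 2.66 FPKM in HFD. With all 6 libraries, none of the 5 tested neutrophil markers was called by limma, and the median was 1.68. Of the 5, 2 had an unadjusted limma p under 0.05, beside 2468 of all 10316 genes. All 5 had a positive log2 fold change, and all 5 were called higher without HFD 1 and HFD_DSS 2. That count again follows from the choice of libraries. The neutrophil marker Ly6g stayed below 1 FPKM in each library. Lymphocyte markers summed to 4.51 to 6.91 FPKM in HFD_DSS and 5.90 to 8.34 FPKM in HFD, and of the 2 tested, Cd4, which passed the filter only through HFD, was called lower (-0.56; not called without HFD 1 and HFD_DSS 2). The part of these cells in the lists above was not tested.

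Some genes of the folding of secreted proteins and of their entry into the ER were called higher, beside 1.92% of all tested genes. Of 33 ER chaperones and folding enzymes, 6 were called higher and none lower, with a median of 0.57. Hsp90b1, the ER chaperone GRP94, had 583, 240 and 418 FPKM in HFD_DSS and 209, 147 and 168 FPKM in HFD (log2 fold change 1.16, SE 0.29, limma adjusted p = 0.0438). Pdia4, a disulfide isomerase, had 461, 178 and 324 FPKM in HFD_DSS and 146, 117 and 129 FPKM in HFD (log2 fold change 1.19, limma adjusted p = 0.0456). The groups did not overlap in either gene, and HFD_DSS 2 was the lowest HFD_DSS library in both. The other called members were the co-chaperones Dnajc3 (0.79) and Dnajc10 (0.64), Hspa13 (0.57) and the lectin chaperone calnexin (Canx, 0.36). Hspa5, the major ER chaperone BiP, had 1081, 448 and 797 FPKM in HFD_DSS and 404, 289 and 336 FPKM in HFD and was not called (log2 fold change 1.10, SE 0.35, limma adjusted p = 0.0889). Without HFD 1 and HFD_DSS 2, 24 of the 33 were called higher, and the median was 0.82, which again follows from the choice of libraries.

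Of genes for entry into the ER and glycosylation, 5 of 35 were called higher, beside 1.92% of all genes, and none lower. The median was 0.22 (13 higher without HFD 1 and HFD_DSS 2). The 5 were the translocation channel Sec61a1 (0.61), the translocon-associated Ssr3 (0.58), both catalytic subunits of oligosaccharyltransferase, Stt3a (0.52) and Stt3b (0.39), and Dpagt1, which makes the first sugar-lipid of N-glycosylation (0.49). Of 36 genes of COPII and COPI vesicle transport, only Kdelr2, the receptor that returns ER proteins from the Golgi, was called (0.47). That is 2.78%, near the 1.92% called higher of all genes. The median was 0.24, and in 22 of the 36 every HFD_DSS library was above every HFD library, beside 1281 of all 10316 tested genes. ER-associated degradation, which disposes of misfolded proteins, had no called gene among 22 (limma, median 0.20), and 5 were called higher without HFD 1 and HFD_DSS 2. Of the 22, 9 had an unadjusted limma p under 0.05, beside 2468 of all 10316 genes. Of 19 targets of ATF4, a factor of the integrated stress response, 4 were called higher, beside 1.92% of all genes. These were Asns, asparagine synthetase (1.42), Ddit3, which encodes CHOP (1.14), Atf3, and Cebpg (0.43). Cth, the cysteine-forming enzyme of transsulfuration and also an ATF4 target, fell (-0.86, limma adjusted p = 0.00988). Lysosomal genes (33) and proteasome genes (33) had no called member by limma and medians of 0.08 and 0.00. An unadjusted limma p under 0.05 was found in 7 and 1 of them, beside 2468 of all 10316 genes. Of 45 autophagy genes 2 were called higher, Map1lc3b (0.41) and Atg14 (0.39), and Atg101 lower (-0.60). That is 6.67% called, near the 5.38% of all genes, and the median was -0.003.

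**Figure D2:**
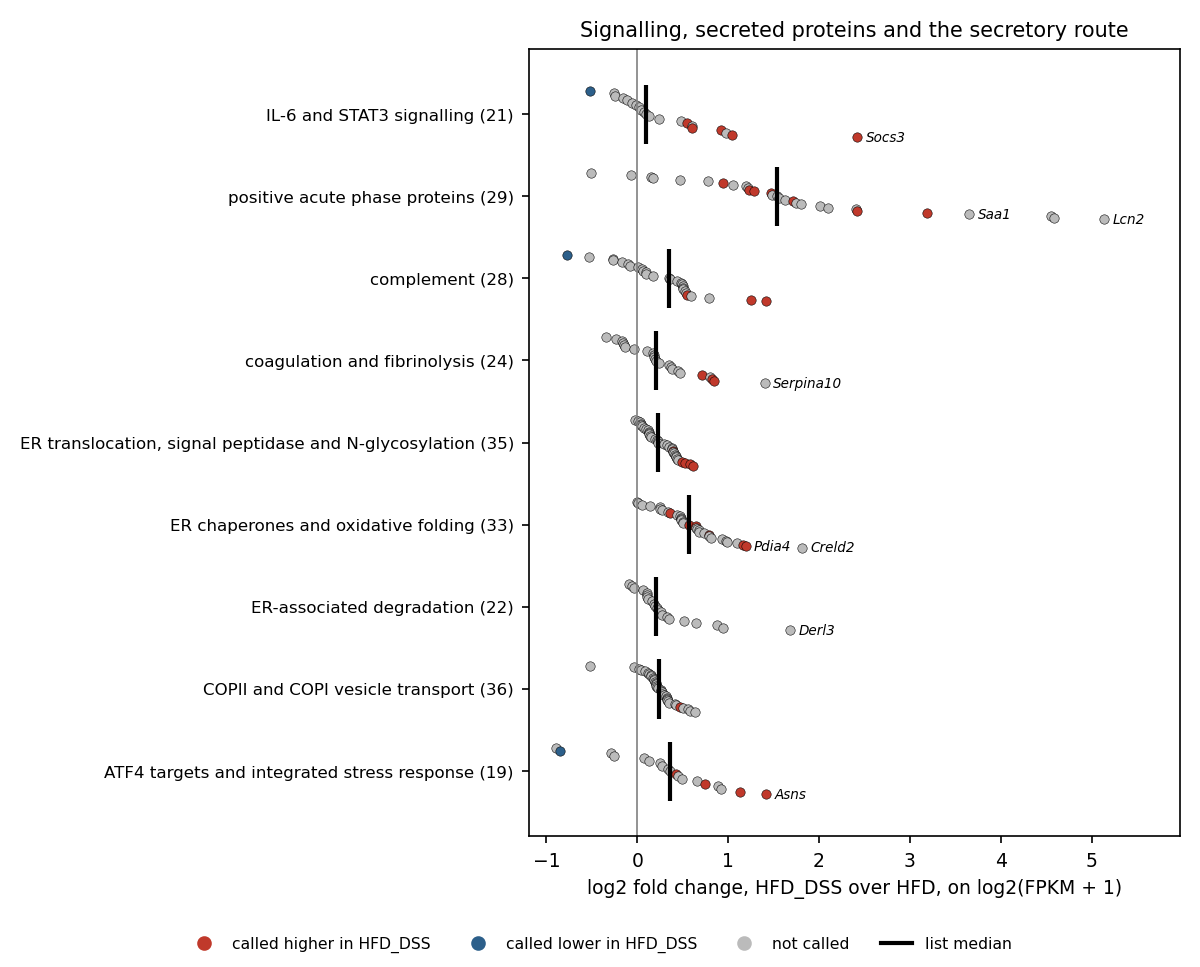
Log2 fold change of HFD_DSS over HFD for each tested gene of 9 lists, with the number tested in parentheses; red and blue points were called higher and lower, grey points were not called, and black bars are list medians. The medians run from 0.09 for interleukin 6 and STAT3 signalling to 1.54 for positive acute phase proteins, and no ER chaperone was called lower.

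Promoters of these genes were searched for the letters that factors of the same pathways are known to bind. The ER stress response element, bound by NF-Y and ATF6, reads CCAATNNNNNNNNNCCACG, where N is any base. On either strand it was found in the promoter window, 250 bases before to 50 after the start in RefSeq, of 7 of 26 ER chaperone genes with a window (26.9%), beside 16 of 7710 tested genes (0.208%). Of these 7, Hsp90b1, Dnajc3 and Canx were called, and Hspa5, Calr, Pdia6 and Creld2 were not. Of genes called higher 4 of 148 held it (2.70%), which were the same 3 chaperones and Acnat2, and of genes called lower none of 271. The windows of 3 called chaperone genes are shown, with the element in capitals, in build GRCm38.p6 and read on the strand of the gene: Hsp90b1 at chr10:86705395-86705694 (minus strand), with the element once in each orientation, Dnajc3 at chr14:118937682-118937981 (plus strand) and Canx at chr11:50325624-50325923 (minus strand).
Hsp90b1: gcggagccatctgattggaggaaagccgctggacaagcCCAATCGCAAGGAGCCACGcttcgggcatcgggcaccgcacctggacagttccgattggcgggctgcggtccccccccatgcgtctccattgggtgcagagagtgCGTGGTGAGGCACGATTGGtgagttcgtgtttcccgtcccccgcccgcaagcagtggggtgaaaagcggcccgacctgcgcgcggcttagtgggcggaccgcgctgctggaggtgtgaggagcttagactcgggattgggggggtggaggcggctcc
Dnajc3: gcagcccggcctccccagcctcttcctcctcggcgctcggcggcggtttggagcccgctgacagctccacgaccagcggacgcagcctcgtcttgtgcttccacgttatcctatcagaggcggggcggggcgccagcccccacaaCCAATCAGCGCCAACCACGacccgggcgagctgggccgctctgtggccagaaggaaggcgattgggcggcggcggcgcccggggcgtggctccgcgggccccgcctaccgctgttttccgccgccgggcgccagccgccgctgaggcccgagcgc
Canx: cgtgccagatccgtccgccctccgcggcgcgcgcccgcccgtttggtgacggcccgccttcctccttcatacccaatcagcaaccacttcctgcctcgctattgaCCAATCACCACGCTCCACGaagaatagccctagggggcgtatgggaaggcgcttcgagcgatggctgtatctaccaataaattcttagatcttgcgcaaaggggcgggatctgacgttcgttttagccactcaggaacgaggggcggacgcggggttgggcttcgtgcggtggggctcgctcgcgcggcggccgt

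STAT factors bind TTCNNNGAA, a letter pattern that reads the same on both strands. It was in the window of 5 of 22 acute phase genes (22.7%) and of 612 of 7710 tested genes (7.94%), with 17 of 148 called higher (11.5%) and 18 of 271 called lower (6.64%). The next windows are those of 3 genes called higher, with the pattern in capitals: Fga at chr3:83025903-83026202 (plus strand), Itih4 at chr14:30886226-30886525 (plus strand) and Socs3 at chr11:117969317-117969616 (minus strand).
Fga: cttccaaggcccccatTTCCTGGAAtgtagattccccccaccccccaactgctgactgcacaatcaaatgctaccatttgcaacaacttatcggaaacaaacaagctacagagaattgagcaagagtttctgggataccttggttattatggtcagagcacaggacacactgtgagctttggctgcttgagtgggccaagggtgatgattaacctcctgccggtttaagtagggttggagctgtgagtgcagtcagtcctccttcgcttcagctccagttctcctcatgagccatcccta
Itih4: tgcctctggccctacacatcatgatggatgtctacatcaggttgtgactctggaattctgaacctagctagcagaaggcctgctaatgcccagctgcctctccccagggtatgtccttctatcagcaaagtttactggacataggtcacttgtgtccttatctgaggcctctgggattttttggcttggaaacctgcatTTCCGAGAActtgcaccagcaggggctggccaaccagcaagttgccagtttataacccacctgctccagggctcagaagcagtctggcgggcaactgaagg
Socs3: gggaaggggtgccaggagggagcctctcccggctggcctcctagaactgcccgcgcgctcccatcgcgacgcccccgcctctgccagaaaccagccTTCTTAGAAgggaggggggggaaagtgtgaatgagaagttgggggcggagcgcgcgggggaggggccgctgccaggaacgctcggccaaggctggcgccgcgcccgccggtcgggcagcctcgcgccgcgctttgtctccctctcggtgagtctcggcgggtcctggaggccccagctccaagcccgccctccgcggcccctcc

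The pattern TGATGNAA, a core of the composite site of ATF4 with C/EBP factors, was in the window of 5 of 16 ATF4 targets (31.3%), beside 2.71% of tested genes, 10 of 148 called higher (6.76%) and 13 of 271 called lower (4.80%). Of the 5, Asns and Atf3 were called, and Chac1, Trib3 and Fgf21 were not. In Asns, at chr6:7693160-7693459 (minus strand), the pattern lies close to the start, in capitals here:
Asns: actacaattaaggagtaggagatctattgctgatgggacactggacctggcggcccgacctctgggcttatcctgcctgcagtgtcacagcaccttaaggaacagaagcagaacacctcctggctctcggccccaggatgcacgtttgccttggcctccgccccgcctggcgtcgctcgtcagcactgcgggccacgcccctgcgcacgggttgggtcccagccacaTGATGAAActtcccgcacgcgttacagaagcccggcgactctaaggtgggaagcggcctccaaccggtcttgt

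Other letters were searched as well. The C/EBP pattern TTGCGCAA was in 1 of 22 acute phase genes and 1 of 148 called higher, beside 24 of 7710 tested genes. The cyclic AMP response element TGACGTCA was in none of 148 called higher and 7 of 271 called lower, beside 278 of 7710. The glucocorticoid response element AGAACANNNTGTTC was in 1 of 148 called higher (Acnat2, which also held the ER stress response element) and 2 of 7710. A match of letters is a description of these windows and not a bound site, and 1565 of the tested genes had more than 1 window. The lists searched hold known targets of these factors, so high shares in them follow from the choice and say nothing about DSS.

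Most called genes of metabolism were lower. Of 30 cytochromes P450 of families 1 to 3, which detoxify drugs and steroids, 10 were called lower, beside 3.46% of all genes. None was called higher, and the median log2 fold change was -0.53. In 21 every HFD_DSS library was below every HFD library, beside 1545 of all 10316. The counts were 14 lower and 1 higher without HFD 1 and HFD_DSS 2. Cyp1a2, which metabolises caffeine and aromatic amines, had 30.4, 152 and 81.8 FPKM in HFD_DSS and 343, 329 and 351 FPKM in HFD (log2 fold change -2.22, SE 0.44, limma adjusted p = 0.0241). Cyp3a11, the main drug-metabolising P450 of its family in mouse liver, had 129, 224 and 101 FPKM in HFD_DSS and 419, 492 and 415 FPKM in HFD (log2 fold change -1.62, limma adjusted p = 0.0215). HFD_DSS 2 was the highest HFD_DSS library in both and still below every HFD library. The abundant Cyp2e1 had -0.13 and was not called, and Cyp3a13 had 0.87 (limma adjusted p = 0.0516). Members of the Cyp2c, Ugt2b, Ces, Gsta and Mup families have near-identical copies, and their values are uncertain. Conjugation enzymes followed with 7 of 32 called lower, beside 3.46% of all genes, none higher and a median of -0.44. Among those called were the glucuronosyltransferases Ugt2b1 (-1.53) and Ugt2a3 (-0.80), the sulfotransferase Sult1b1 (-0.70) and the glutathione transferase Gsta3 (-1.22). Cat, catalase, which breaks down hydrogen peroxide, had 709, 896 and 754 FPKM in HFD_DSS and 1034, 1362 and 1341 FPKM in HFD (log2 fold change -0.66, limma adjusted p = 0.0333).

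Amino acid metabolism was called lower in 12 of 46 genes, beside 3.46% of all genes, and higher in none, with a median of -0.39. Without HFD 1 and HFD_DSS 2, 19 were called lower and 1 higher. Glul, glutamine synthetase of the pericentral hepatocytes, had 32.2, 36.9 and 92.0 FPKM in HFD_DSS and 253, 243 and 284 FPKM in HFD (log2 fold change -2.41, SE 0.35, limma adjusted p = 0.00979). Ass1, argininosuccinate synthetase of the urea cycle, had 411, 503 and 425 FPKM in HFD_DSS and 678, 955 and 801 FPKM in HFD (log2 fold change -0.85, limma adjusted p = 0.0254). Otc, another enzyme of the cycle, fell by 0.45 on the log2 scale, whereas Cps1 and Arg1, its first and last enzymes, had -0.09 and -0.07 and were not called. Among the called members were the histidine-degrading enzymes Hal (-1.20), Amdhd1 (-0.59) and Ftcd (-0.56), while Uroc1 of the same route had -0.35 and was not called. The tryptophan-degrading enzymes Tdo2 (-0.68), Acmsd (-0.72) and Haao (-0.56) were called as well. Genes of both ends of the liver lobule were called lower, 10 of 29 periportal and 5 of 28 pericentral, beside 3.46% of all genes. None was called higher, and the medians were -0.25 and -0.27. These lists share members with those above, such as Cyp2a5, Cyp2f2, Glul and Ass1, so some of the calls are the same. The pericentral target of beta-catenin Axin2 had 0.02 and was not called, while Rnf43, another such target, fell (-0.88).

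Of 31 genes of glucose metabolism, 7 were called lower, beside 3.46% of all genes, and none higher (median -0.31). Without HFD 1 and HFD_DSS 2, 12 were called lower and 1 higher. G6pc, the glucose-6-phosphatase that releases glucose, had 42.8, 79.6 and 61.5 FPKM in HFD_DSS and 350, 269 and 242 FPKM in HFD (log2 fold change -2.23, limma adjusted p = 0.0314). Pck1, the earlier step of gluconeogenesis, had -0.11 and was not called. Pygl, which breaks down glycogen (-0.85), the fructose kinase Khk (-0.86), and the glycolytic enzymes Pklr (-0.92, with 22.0% of its exon bases shared with another gene), Eno1 (-0.60) and Pgam1 (-0.38) fell. Scd1, the stearoyl-CoA desaturase that makes monounsaturated fat, had 8.37, 71.2 and 14.3 FPKM in HFD_DSS and 108, 547 and 686 FPKM in HFD (log2 fold change -3.99, SE 0.88, limma adjusted p = 0.0307). With Thrsp, a lipogenic regulator (-2.05), and Acly, ATP citrate lyase (-0.70), it made 3 called lower of 25 lipogenic genes. Of all genes 3.46% were called lower, and the list's median was -0.61. HFD_DSS 2 stood apart in this list, with a median level 0.15 above the mean of the 6 libraries beside -0.51 and -0.48 in HFD_DSS 1 and 3, and without it and HFD 1 the calls numbered 11 of 25.

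Nuclear genes of oxidative phosphorylation moved by little and in 1 direction. All 40 tested genes had a negative log2 fold change, beside 5421 of all 10316, their median was -0.37, and 13 were called lower, beside 3.46% of all genes. In 30 of the 40 every HFD_DSS library was below every HFD library, beside 1545 of 10316, and 10 were called lower without HFD 1 and HFD_DSS 2. On CD none of the 40 was called by limma, although 27 had an unadjusted p under 0.05 and the median was -0.28. The count over all genes at that threshold on CD is not given here. For the difference between the diets none of the 40 had an unadjusted limma p under 0.05, beside 508 of all 10316. Sdhb, the iron-sulfur subunit of complex II, had 53.0, 52.5 and 53.5 FPKM in HFD_DSS and 74.9, 87.7 and 75.2 FPKM in HFD (log2 fold change -0.57, SE 0.10, limma adjusted p = 0.0138). Called subunits came from complex I (Ndufb9 -0.50, Ndufb5 -0.40), complex III (Cyc1 -0.51, Uqcrc1 -0.49), complex IV (Cox5a -0.42) and ATP synthase (Atp5c1 -0.49). Of 13 genes encoded by the mitochondrial genome, mt-Co1 was called, with 9581, 10543 and 9818 FPKM in HFD_DSS and 14080, 15925 and 15367 FPKM in HFD (log2 fold change -0.60, limma adjusted p = 0.0375), and the median was -0.24. Esrra, a nuclear receptor that drives mitochondrial genes, fell (-0.59) but was not called without HFD 1 and HFD_DSS 2 (limma adjusted p = 0.081). Hnf4a, a master regulator of hepatocyte genes, had 225, 198 and 233 FPKM in HFD_DSS and 152, 135 and 148 FPKM in HFD (log2 fold change 0.59, limma adjusted p = 0.0215).

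**Figure D3:**
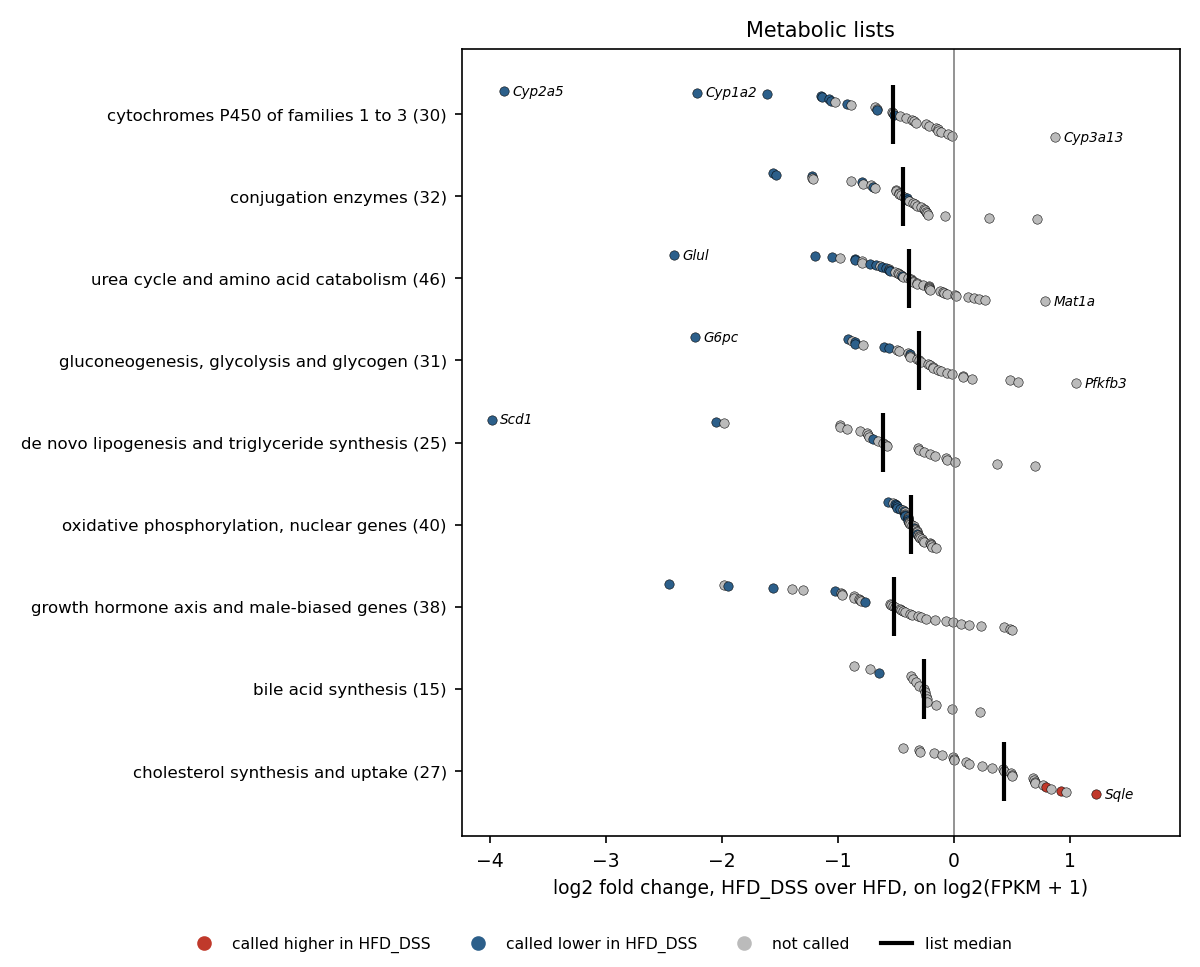
Log2 fold change of HFD_DSS over HFD for each tested gene of 9 metabolic lists, with the number tested in parentheses; red and blue points were called higher and lower, grey points were not called, and black bars are list medians. Medians are below 0 in 8 lists, down to -0.61 for lipogenesis, and 0.43 for cholesterol synthesis and uptake; the 40 genes of oxidative phosphorylation all lie between -0.57 and -0.16.

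The list levels in single libraries show how far the 6 libraries followed their groups. For positive acute phase proteins the median level, as a difference from the mean of the 6 libraries on the log2 scale, was 1.05, 0.01 and 1.20 in HFD_DSS 1, 2 and 3 and 0.02, -1.13 and -1.14 in HFD 1, 2 and 3, so HFD_DSS 2 and HFD 1 were level. For ER chaperones it was 0.50, -0.05 and 0.38 in HFD_DSS and -0.07, -0.41 and -0.35 in HFD. Oxidative phosphorylation did not follow that order: HFD_DSS had -0.21, -0.19 and -0.18, all close together, and HFD had 0.25, 0.29 and 0.05. In the urea cycle and amino acid list HFD_DSS 2 was the lowest of all, with -0.24, -0.26 and -0.10 in HFD_DSS and 0.04, 0.38 and 0.18 in HFD. HFD_DSS 2, the HFD_DSS library nearest to HFD in acute phase genes, was thus not nearest to it in the amino acid list.

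**Figure D4:**
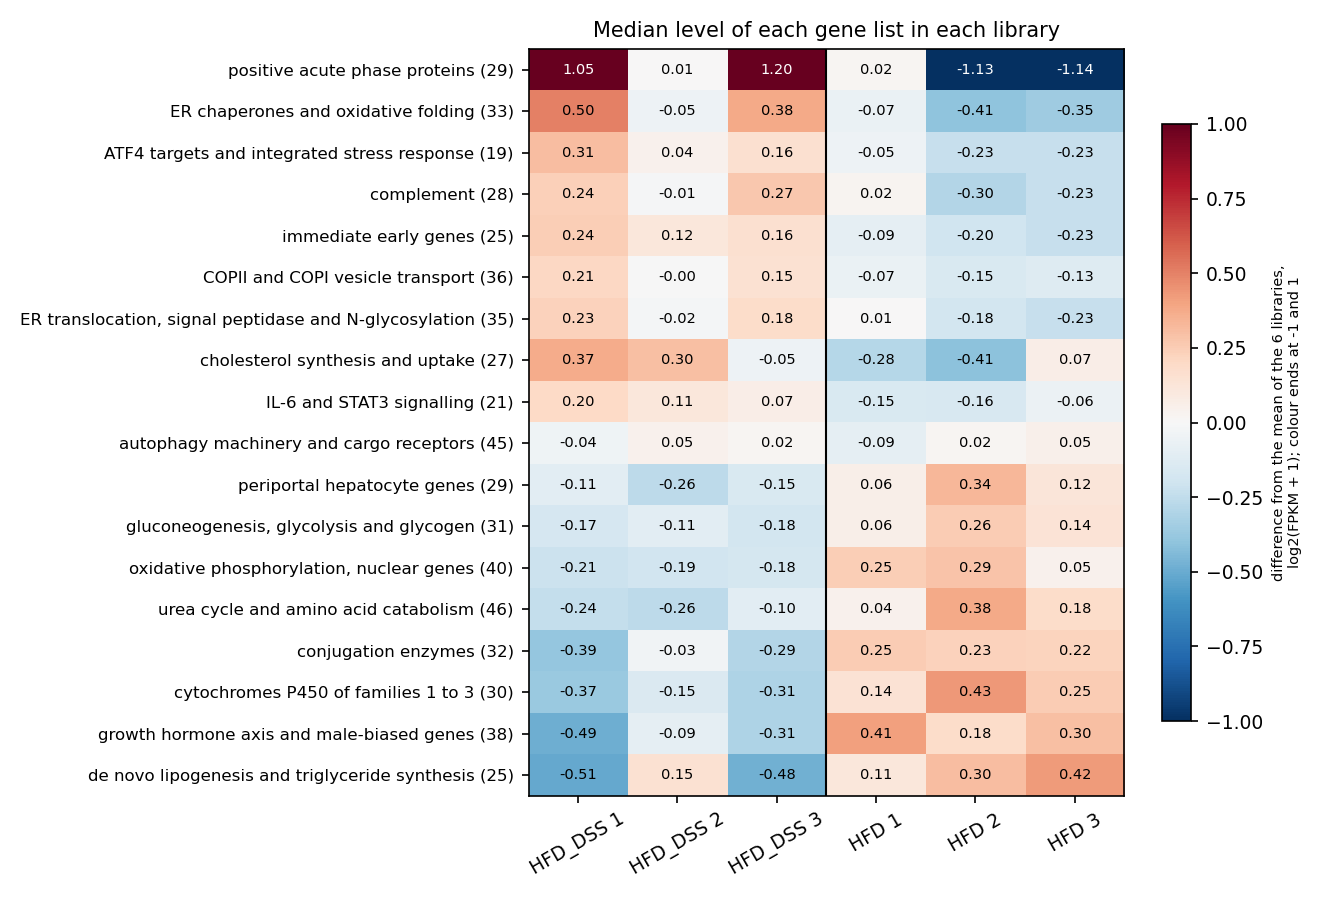
Median over the tested genes of each list (number in parentheses) of the difference of log2(FPKM + 1) from the mean of the 6 libraries, by library, HFD_DSS left of the line and HFD right of it; red is above and blue below that mean. HFD_DSS 2 and HFD 1 are level for acute phase proteins (0.01 and 0.02), while for oxidative phosphorylation the 3 HFD_DSS libraries lie at -0.21 to -0.18 and the 3 HFD libraries at 0.05 to 0.29.

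Genes of the growth hormone axis and of male-biased expression had a median of -0.52. Of the 38, 5 were called lower, beside 3.46% of all genes, and none higher (7 lower without HFD 1 and HFD_DSS 2). Of 6 female-biased genes Prlr, the prolactin receptor, was called higher (0.85; not called without HFD 1 and HFD_DSS 2) and none lower, with a median of 0.04. The called male-biased genes included Cyp4a12a, a male-specific fatty acid hydroxylase in mice, with 18.2, 57.7 and 52.1 FPKM in HFD_DSS and 138, 162 and 149 FPKM in HFD (log2 fold change -1.95, limma adjusted p = 0.0295), and the major urinary protein Mup20 (-1.02). The call of Mup20 was lost without any 1 of the 6 libraries and without both HFD 1 and HFD_DSS 2 (limma adjusted p = 0.116). Mup8, of the same family, went the other way, with 242, 247 and 150 FPKM in HFD_DSS and 7.75, 3.81 and 11.0 FPKM in HFD (log2 fold change 4.71, SE 1.23, limma adjusted p = 0.0495). One CD library had 199 FPKM of Mup8, the other CD and CD_DSS libraries had 1.36 to 2.64 FPKM, and the call on the high-fat diet was lost without any 1 of the 6 libraries. The growth hormone target Igf1 had 52.5, 68.8 and 53.5 FPKM in HFD_DSS and 47.3, 51.3 and 49.0 FPKM in HFD and was not called (log2 fold change 0.23, limma adjusted p = 0.21).

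To see where DSS acted differently on the diets, the difference between its effects was tested. In the same fit CD_DSS against CD gave 524 calls (5.08%) among the same genes, and 196 genes were called in the same direction on both diets, 35.3% of the calls on HFD and 37.4% of those on CD, with none called in opposite directions. Of the 555 genes called on HFD, 532 had the same sign on CD, beside 7601 of all 10316. The difference between the DSS effects was called for 1 gene (0.00969% of those tested), and 508 genes had an unadjusted p under 0.05. That gene was the long noncoding RNA BC049987, with 8.85, 8.44 and 6.48 FPKM in HFD_DSS and 7.51, 7.92 and 6.21 FPKM in HFD, where it was not called (log2 fold change 0.11, limma adjusted p = 0.643). On CD it had 1.59, 2.23 and 1.64 FPKM in CD_DSS and 6.65, 8.13 and 6.94 FPKM in CD (log2 fold change -1.55). The difference between the effects was 1.66 (SE 0.19, limma adjusted p = 0.0216). Without HFD 1 and HFD_DSS 2 no gene was called in the difference (limma).

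For cholesterol synthesis the list medians had opposite signs on the diets. On HFD 3 of 27 genes were called higher, beside 1.92% of all genes, and none lower, with a median of 0.43. On CD 4 were called lower, beside 306 of all 10316, and none higher, with a median of -0.50. The list's median level overlapped between the groups on HFD, with 0.37, 0.30 and -0.05 in HFD_DSS and -0.28, -0.41 and 0.07 in HFD, as differences from the mean of the 6 libraries. Without HFD 1 and HFD_DSS 2, 3 genes of the list were called higher and 2 lower, and the median was 0.37. Sqle, squalene epoxidase, had 38.9, 29.5 and 27.8 FPKM in HFD_DSS and 14.5, 8.79 and 17.0 FPKM in HFD (log2 fold change 1.23, SE 0.22, limma adjusted p = 0.0177), and 17.2, 22.3 and 26.0 FPKM in CD_DSS and 27.0, 20.6 and 24.2 FPKM in CD. Fdps, farnesyl diphosphate synthase, also rose (0.92), with 26.7% of its exon bases shared with another transcript. The difference between the DSS effects was above 0 in 25 of the 27 genes, beside 4907 of 10316, and 19 of the 27 had an unadjusted p under 0.05 for it, beside 508 of all genes. Differences above 0 were also found in 31 of 33 ER chaperones, 32 of 35 genes of ER entry and 33 of 36 of vesicle transport, with medians of 0.27, 0.18 and 0.13, beside 0.80 for cholesterol synthesis, and an unadjusted p under 0.05 in 2, 1 and 1 of them. None of the 27 passed the adjustment over all genes, with 0.44 for Fdps and 0.638 for Sqle (limma adjusted p). Without DSS the HFD libraries of Sqle lay below all CD libraries, so the levels from which the effects were taken also differed.

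**Figure D5:**
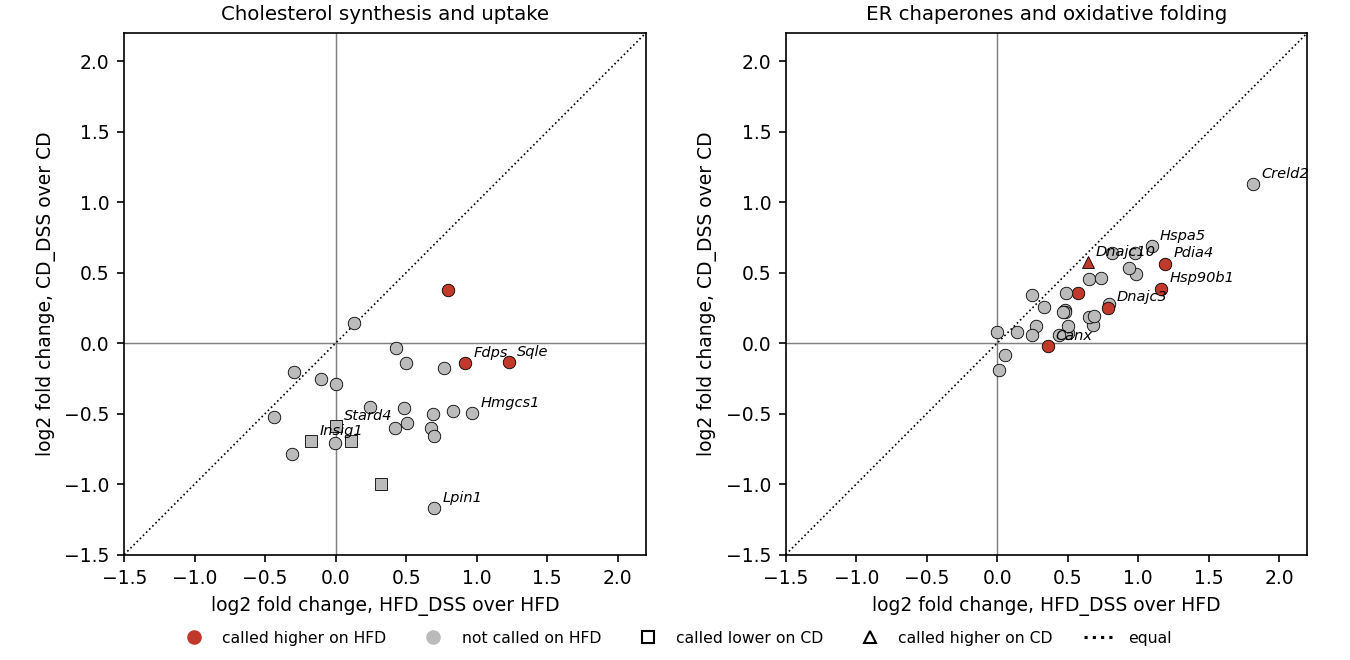
Log2 fold change of DSS on the high-fat diet (horizontal) and on CD (vertical) for each tested gene of cholesterol synthesis and uptake (left) and of ER chaperones (right), on log2(FPKM + 1); red points were called higher on HFD, squares lower on CD and triangles higher on CD, and the dotted line marks equal effects. Cholesterol genes such as Sqle (1.23 and -0.14) lie below the line, with 25 of 27 genes larger on HFD; of the ER chaperones 31 of 33 are larger on HFD.

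Bile acid synthesis had a median log2 fold change below 0 on both diets, with -0.26 on HFD and -0.50 on CD over 15 genes. On HFD 1 of the 15 was called lower, beside 3.46% of all genes, and on CD 4, beside 306 of all 10316. None was called higher on either diet. The difference between the DSS effects was above 0 in 8 of the 15, beside 4907 of all 10316, with a median of 0.11. For this difference 2 of the 15 had an unadjusted limma p under 0.05, beside 508 of all 10316. Values on the diets stood apart for 2 chosen genes of bile acid synthesis. Cyp7a1, its rate-limiting enzyme, had 14.1, 1.44 and 15.3 FPKM in HFD_DSS and 4.92, 6.41 and 13.3 FPKM in HFD (log2 fold change -0.02, limma adjusted p = 0.989), with 2.37, 0.379 and 1.15 FPKM in CD_DSS and 35.3, 15.6 and 46.6 FPKM in CD (-3.83). Cyp8b1, the sterol 12-alpha-hydroxylase, had 187, 141 and 160 FPKM in HFD_DSS and 164, 203 and 219 FPKM in HFD (log2 fold change -0.26, limma adjusted p = 0.358), and -1.48 on CD. The difference between the effects was not called for either (limma adjusted p = 0.678 for Cyp7a1 and 0.44 for Cyp8b1). Asns, above, had no call on CD (-0.11), nor had Cyp3a11 (-0.29) or Canx (-0.02), and their differences between the diets did not pass either (limma adjusted p = 0.678, 0.935 and 0.935).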

How the data were processed

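Liver RNA of 12 libraries was analysed, 6 of which carry the comparison. The authors deposited FPKM per gene, normalised to gene length and library size, 1 column per library with no pooling; 4 unnamed columns without values were not used. The genome build is mm10 according to the submitters' processing notes; the aligner and counter were not given in the sources used here. Multiplied by GENCODE exon length, 97.1 to 97.3% of the deposited FPKM values of the 6 libraries that stand for under 500 fragments lay within 0.02 of a whole number, which gave the depth of each library in fragments; the divisor in the FPKM was 0.927 to 1.05 times that sum, so the values carry a scaling beyond depth.

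Genes with at least 1 FPKM in 3 of the 6 libraries were tested on log2(FPKM + 1) with limma 3.58.1 in R 4.3.3 (4 group means, all 12 libraries, two-sided, moderated variances with a trend), adjusted by Benjamini-Hochberg over all tested genes at 0.05. The same fit gave CD_DSS against CD and the difference of both DSS effects. The code was tested on data with known changes. Tables and plots were made with Python 3.11.15 and pandas 2.3.3. Members, gene lists and tests were chosen with earlier results of these data known, so a list's direction is a description and no list was tested.

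Named are the 15 called genes highest and lowest in fold, the 10 with the smallest adjusted p and the 10 most abundant in each direction, up to 6 called members per list, genes called in the difference, and 26 chosen genes such as Saa1, Hamp and Cyp7a1; not all are printed, and some are not reported here. Chosen outside this rule, with their values already seen, are Gm35696, Gm45344, members of lists given as not called, and further called members of lists. Promoter windows come from RefSeq (GRCm38.p6) for 7710 tested genes. The alternatives were a pseudocount of 0.1, other filters and scalings, a fit of 2 groups, library weights, a robust prior, a replicate block, a minimum fold, voom on recovered fragments and leaving out libraries.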

Additional observations from a re-analysis of the deposited data

Results flagged for a closer look

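The DSS effect on the long noncoding RNA BC049987 was 1.66 higher on the high-fat diet than on CD on the log2 scale (SE 0.19, limma adjusted p = 0.0216 for the difference itself). It had 6.48 to 8.85 FPKM in HFD_DSS and 6.21 to 7.92 FPKM in HFD, where the groups overlapped, and 1.59 to 2.23 FPKM in CD_DSS and 6.65 to 8.13 FPKM in CD, where they did not. No gene passed for the difference without HFD 1 and HFD_DSS 2, nor in 8 of the 12 fits that left out 1 library (HFD_DSS 1, HFD_DSS 2, HFD 2, HFD 3, CD_DSS 1, CD_DSS 3, CD 1 or CD 2).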

How the results depend on the processing

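The number of genes called between HFD_DSS and HFD depended on the setting, while none of the 142 called genes named by the rule changed direction in any. Beside 555 calls there were 130 with no filter on low values, 152 in a fit of HFD and HFD_DSS alone, 2793 with libraries weighted, 1315 without HFD 1 and HFD_DSS 2, and 124 with a log2 fold change of at least 1. Leaving out 1 library gave 17 (without HFD 2) to 910 (without CD_DSS 1), with 44, 901 and 77 without HFD_DSS 1, 2 and 3, 140 without HFD 3 and 313 without CD 2. CD_DSS against CD gave 524 calls, with 157 (no filter), 2602 (weighted), 121 (minimum fold) and 64 to 1306 with 1 library left out. The difference between the diets, 1 call, gave 0 with no filter, 0 without HFD 1 and HFD_DSS 2, and 0 to 3 with 1 library left out. With the replicate block the calls were 295 on HFD, 301 on CD and 1 for the difference; same-numbered libraries deviated from their group means with correlations of 0.25, 0.27 and -0.17, so the numbers were not taken to pair the samples. Genes that were not called changed sign: BC049987 had -0.0051 with libraries weighted; Cyp7a1 had 0.42 weighted, 0.61 without HFD 1 and HFD_DSS 2, and -0.50 (without HFD_DSS 3) to 0.87 (without HFD_DSS 2) with 1 library left out; and Ppara had -0.56 (without HFD 1) to 0.017 (without HFD_DSS 1). Of 142 named called genes, 132 kept the call without HFD 1 and HFD_DSS 2, 106 after rescaling to TPM and 49 in the fit of HFD and HFD_DSS alone. As HFD 1 and HFD_DSS 2 were picked for lying between the groups, the count of 132 is no measure of robustness. Medians of 11 of 52 lists, all near 0, changed sign in some setting. The causes were not tested. With 3 libraries a group, a gene that was not called is not shown to be unchanged.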

Other observations

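Gene families outside the lists were chosen after their values were seen, and their counts are descriptions without a test. Carbonic anhydrases, which interconvert carbon dioxide and bicarbonate, were lower: 4 of 6 tested were called lower, beside 3.46% of all genes. The log2 fold change was negative in all 6, beside 5421 of all 10316, with a median of -1.01. Car3 had 118, 390 and 119 FPKM in HFD_DSS and 670, 1136 and 867 FPKM in HFD (log2 fold change -2.30, limma adjusted p = 0.0363), and Car5a, the mitochondrial form with 23.5% of its exon bases shared with another gene, had -0.79. Of 13 carboxylesterases 5 were called, all lower, beside 3.46% of all genes (median -0.80), with near-identical copies in the family. Of 74 mitochondrial ribosomal protein genes 68 had a negative log2 fold change and 5 were called lower (median -0.14), beside 5421 negative and 3.46% called lower of all 10316. Of 73 cytosolic ribosomal protein genes 34 had a negative log2 fold change and none was called by limma (median 0.02). An unadjusted limma p under 0.05 was found in 1 of the 73, beside 2468 of all 10316.

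Among the 4 tested B4galt genes, galactosyltransferases of glycoproteins, B4galt1 had 24.2, 21.8 and 25.1 FPKM in HFD_DSS and 15.3, 11.0 and 10.0 FPKM in HFD (log2 fold change 0.93, limma adjusted p = 0.0438), and B4galt5 was called higher as well (0.69). Hnf4aos, annotated antisense to Hnf4a and sharing no exon bases with it, had 1.45, 0.641 and 1.36 FPKM in HFD_DSS and 2.29, 3.11 and 4.19 FPKM in HFD (log2 fold change -0.96, limma adjusted p = 0.0306), while Hnf4a was called higher (0.59). The long noncoding RNA Gm35696 had 0.758, 1.40 and 0.774 FPKM in HFD_DSS and 6.13, 5.47 and 5.35 FPKM in HFD, with 1.71 to 1.79 FPKM in CD_DSS and 1.80 to 3.27 FPKM in CD, and the difference between the DSS effects was not called (limma adjusted p = 0.329).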
